A study of Gallus gallus with 5 samples.

Results

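MSGN1, MEOX1, TCF15 and FOXC2 are transcription factor genes of the paraxial mesoderm, the tissue beside the midline that is cut into somites. They were taken by name, but with earlier results of these data known, and are 4 of the 6940 genes with symbols in these data. Their mRNA was counted in single cells of chicken embryos that had received a graft of eGFP-expressing somite progenitor tissue at the primitive streak. Donor tissue came from GFP-transgenic embryos at HH8 (30 hours of incubation) or HH4 (20 hours), and every host was a wild-type HH4 embryo. The grafted region was dissected 3 hr or 0 hr after grafting, and grafts were pooled into 1 library per condition. The conditions were HH8-HH4 3 hr, HH8-HH4 0 hr, HH4-HH4 3 hr and HH4-HH4 0 hr, with the donor stage written before the host stage.

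MSGN1 (mesogenin, a bHLH factor) is known from mouse as a gene that cells need to leave the streak and become presomitic mesoderm, and it is switched off as somites form. MEOX1 (a homeobox factor) and TCF15 (paraxis, a bHLH factor needed for somites to become epithelial) come on as the presomitic mesoderm matures and stay on in somites. FOXC2, a forkhead factor, is expressed in the paraxial mesoderm and somites, and in mouse it acts with FOXC1 in their formation.

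Graft barcodes were those with 3 or more UMIs (unique molecular identifiers, each one captured mRNA molecule) of eGFP, and host barcodes had 0, all with at least 2000 UMIs. Grafts and hosts numbered 116 and 232 barcodes in HH8-HH4 3 hr, 2029 and 1726 in HH8-HH4 0 hr, 72 and 181 in HH4-HH4 3 hr, and 720 and 1764 in HH4-HH4 0 hr. All 4 members were detected in all 8 groups. A level is a gene's UMIs summed over a group and scaled to 1000000 (CPM), and its 95% Poisson interval covers counting error only. With 1 library per condition no difference has a replicate check, cells are not replicates, and no test was run. A ratio between libraries compares those libraries and not the conditions.

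The libraries differed in depth. The median was 981 UMIs per barcode in HH8-HH4 3 hr, where 56.6% of 943 barcodes fell under the minimum, and 38081 in HH4-HH4 3 hr, which held 301 barcodes. At 0 hr the donor label was borne out by HOXB8, a posterior HOX gene. It had a UMI in 99.6% of HH8 graft barcodes and 0 UMIs in HH4 grafts. At 3 hr it had a UMI in 90.5% of HH8 graft barcodes, beside 45.8% of graft and 40.3% of host barcodes of the deeper HH4-HH4 3 hr. Some HH8 graft barcodes at 3 hr held little or no HOXB8, as given below, and for those it does not bear out the label. Hosts of HH4-HH4 3 hr stood apart: their MIXL1 level (a streak gene) was 8.0 CPM, against 1619 to 2248 CPM in the other hosts, and their HOXB8 level was 92.3 CPM, against 0.263 to 14.8 CPM. HH4 grafts of that library had 42.8 CPM of HOXB8. T (Brachyury, of the streak) had a UMI in 94.0% to 99.5% of barcodes of every group, so it checks no donor, host or time label. Its level still differed, at 476 CPM in grafts and 2004 CPM in hosts of HH8-HH4 3 hr.

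Among HH8 grafts MSGN1 was low at both times. Its level in HH8 grafts was 77.0 CPM (66.1 to 89.2) at 3 hr and 228 CPM (222 to 235) at 0 hr, and in their hosts it was 475 CPM (456 to 495) at 3 hr and 940 CPM (925 to 955) at 0 hr. HH4 grafts had 845 CPM (817 to 873) at 3 hr and 786 CPM (769 to 803) at 0 hr, beside 1158 CPM (1134 to 1182) and 680 CPM (670 to 690) in their hosts. The 8 levels of MSGN1 had no overlapping neighbours in their order, and the HH8 grafts were the lowest of it. Graft levels were 6.17-fold lower than in host in HH8-HH4 3 hr (log2 ratio -2.48) and 4.12-fold lower in HH8-HH4 0 hr (-1.99), whereas HH4 grafts differed from their hosts by log2 -0.45 at 3 hr and 0.21 at 0 hr. Log2 ratios here were taken after adding 10 CPM to both levels, which understates changes of low genes.

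**Figure D1:**
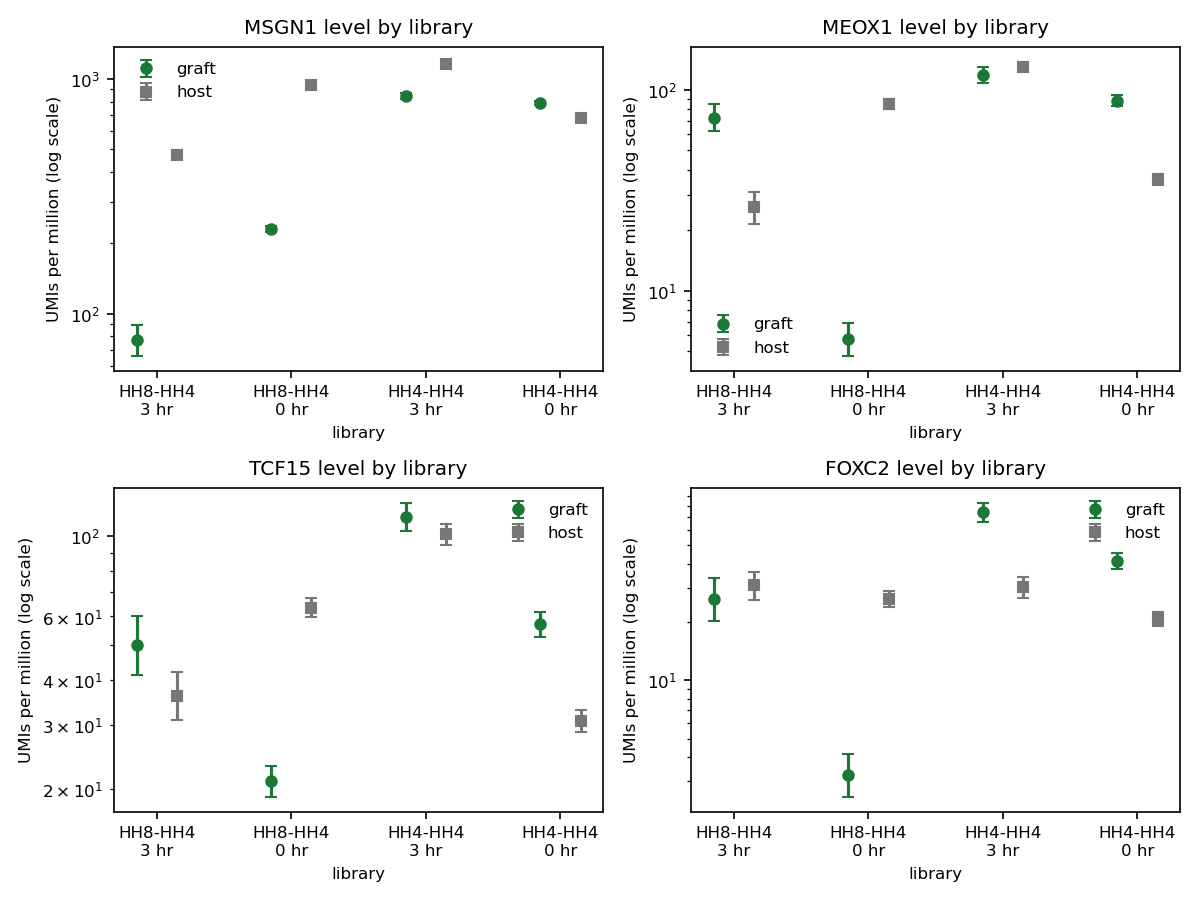
Levels of the 4 members (y axis, CPM, log scale, with a range of its own in each panel) in graft (green circles) and host (grey squares) barcodes of each library, with 95% Poisson intervals. HH8 grafts hold the lowest MSGN1 levels, 77.0 CPM at 3 hr and 228 CPM at 0 hr, and at 0 hr also the lowest MEOX1, TCF15 and FOXC2 levels, 5.77, 21.0 and 3.25 CPM.

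The share of barcodes with MSGN1 told the same order for grafts. In HH8-HH4 3 hr 37.9% of graft and 68.1% of host barcodes held an MSGN1 UMI, and after each barcode was thinned to 2000 UMIs these shares were 12.9% (7.42 to 20.4) and 38.8% (32.5 to 45.4). In HH8-HH4 0 hr the thinned shares were 28.5% in grafts and 42.5% in hosts (56.2% and 54.7% unthinned). In HH4-HH4 they were 59.7% in grafts and 53.6% in hosts at 3 hr (95.8% and 81.8% unthinned), and 45.8% in grafts and 38.7% in hosts at 0 hr (68.3% and 63.1% unthinned). At unequal depth the unthinned shares of HH8-HH4 0 hr put grafts slightly above hosts, and neither the thinned shares nor the levels do. The thinned shares of HH4-HH4 3 hr run against the levels, and no order is read from them.

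Background was read from barcodes with 5 or more UMIs of SOX17, an endoderm gene, on the premise that endoderm lacks these factors. That premise was not tested and doublets were kept, so these barcodes are a comparison group and not a proven floor. In HH8 grafts at 3 hr MSGN1, at 77.0 CPM with a median depth of 19188 UMIs, did not exceed the 102 CPM (77.1 to 131) of 21 such barcodes (median 25872 UMIs, 57.1% with a UMI), so no expression is read from the pooled level. It was uneven, with up to 44 of the 178 UMIs in 1 barcode. In HH8 grafts at 0 hr its 228 CPM (median 8838 UMIs) lay above the 53.0 CPM (43.5 to 64.0) of 206 SOX17 barcodes (median 9564.5 UMIs, 22.8% with a UMI).

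Of the later genes, MEOX1 and TCF15 in HH8 grafts at 3 hr, at 72.7 and 50.2 CPM, lay above the 3.50 CPM (0.424 to 12.6) and 5.25 CPM (1.08 to 15.3) of the SOX17 barcodes. At 0 hr HH8 graft MEOX1 and FOXC2, at 5.77 and 3.25 CPM, did not exceed 3.93 CPM (1.70 to 7.74) and 15.7 CPM (10.7 to 22.2) beyond counting error, and TCF15 at 21.0 CPM exceeded 12.8 CPM (8.34 to 18.7). FOXC2 in HH8-HH4 3 hr, at 26.4 CPM in grafts and 31.0 CPM in hosts, did not exceed the 43.8 CPM (28.3 to 64.6) of its SOX17 barcodes. Their value lay above that of either class, so it sets no floor for FOXC2. All 4 members of HH4-HH4 0 hr lay far above the 83 CPM of MSGN1, 4.24 CPM of MEOX1 and 5.83 CPM of both TCF15 and FOXC2 in 256 SOX17 barcodes. In HH4-HH4 3 hr just 14 barcodes qualified. Their levels of MEOX1, TCF15 and FOXC2 were 101 CPM (80.0 to 126), 158 CPM (131 to 188) and 89.6 CPM (69.9 to 113). TCF15 and FOXC2 in either class of that library, and MEOX1 in its grafts, did not exceed these beyond counting error. MEOX1 in its hosts, at 130 CPM (122 to 138), lay above 101 CPM, with overlapping intervals. MSGN1 did exceed the 336 CPM of the 14 barcodes. TCF15 had a UMI in 85.7% of these 14 barcodes, and its level in them lay above both classes. They are thus no background for the later genes there, and this comparison cannot tell whether those genes were expressed.

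MEOX1 levels ranged from 5.77 CPM to 130 CPM. HH8 grafts had 72.7 CPM (62.1 to 84.5) at 3 hr and 5.77 CPM (4.74 to 6.96) at 0 hr, and their hosts had 26.0 CPM (21.6 to 31.0) at 3 hr and 85.0 CPM (80.5 to 89.6) at 0 hr. In HH4-HH4 the levels were 118 CPM (108 to 129) in grafts and 130 CPM (122 to 138) in hosts at 3 hr, which overlap, and 88.4 CPM (82.8 to 94.2) in grafts and 35.9 CPM (33.6 to 38.2) in hosts at 0 hr. Relative to host, MEOX1 in HH8 grafts was thus higher at 3 hr (2.80-fold, 2.21 to 3.56) and 14.7-fold lower at 0 hr, and in HH4 grafts it was 2.46-fold (2.25 to 2.70) higher at 0 hr. Its thinned shares in HH8-HH4 were 6.03% in grafts and 2.59% in hosts at 3 hr, and 0.641% in grafts and 9.21% in hosts at 0 hr (19.8%, 19.0%, 3.20% and 19.4% unthinned, beside 4.76% and 3.40% in the SOX17 barcodes at 3 hr and 0 hr).

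The 3 hr level of MEOX1 in HH8 grafts rested on few cells. Of 168 UMIs in 116 barcodes, 2 barcodes held at least 50% and the top 3 held 58.9%. Without the 3 barcodes with most MEOX1 in each class, the level was 31.1 CPM in grafts and 18.6 CPM in hosts, and the log2 ratio was 0.52 in place of 1.20, no longer past 2-fold. It was 0.99 without the 5% deepest barcodes and 0.76 with every barcode of 1 or more eGFP UMI counted as graft. Of the 3 hr MSGN1 UMIs, 42.7% were in 3 barcodes, and the level was 45.7 CPM without them. At 0 hr, by contrast, HH8 graft MEOX1 never exceeded 6 UMIs in a barcode.

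TCF15 followed MEOX1 with smaller differences. Levels in HH8-HH4 were 50.2 CPM (41.5 to 60.2) in grafts and 36.2 CPM (31.0 to 42.1) in hosts at 3 hr, and 21.0 CPM (19.0 to 23.2) in grafts and 63.5 CPM (59.7 to 67.5) in hosts at 0 hr. HH4-HH4 grafts and hosts had 113 and 101 CPM at 3 hr, with overlapping intervals, and 57.1 and 30.9 CPM at 0 hr. TCF15 was thus 3.02-fold lower in HH8 grafts than in their hosts at 0 hr, and 1.38-fold (1.08 to 1.76) higher at 3 hr. In the order of all 8 levels, the neighbours from HH8-HH4 0 hr hosts down to HH4-HH4 0 hr hosts overlapped each in turn.

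FOXC2 levels were 26.4 CPM (20.2 to 33.9) in grafts and 31.0 CPM (26.2 to 36.4) in hosts of HH8-HH4 3 hr, and 3.25 CPM (2.49 to 4.17) in grafts and 26.4 CPM (24.0 to 29.1) in hosts of HH8-HH4 0 hr. HH4 grafts held 74.3 CPM (66.3 to 83) and their hosts 30.2 CPM (26.5 to 34.3) at 3 hr, and at 0 hr the levels were 41.5 CPM (37.7 to 45.6) and 20.8 CPM (19.1 to 22.6). Grafts were thus 2.46-fold higher than hosts in HH4-HH4 3 hr, 2.00-fold higher in HH4-HH4 0 hr and 8.13-fold lower in HH8-HH4 0 hr. The hosts of the first 3 libraries, with 26.4 to 31.0 CPM, overlapped as neighbours.

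Set against all genes with at least 20 UMIs in both classes together, the members lay in the tails at 0 hr. All 4 were at least 2-fold lower in grafts than in hosts of HH8-HH4 0 hr, where 3.68% of 4916 genes were, and 1.61% were 2-fold higher. At 3 hr in the same series MSGN1 alone was 2-fold lower (2.73% of 4393 genes) and MEOX1 alone 2-fold higher (2.57%). In HH4-HH4 0 hr MEOX1 was 2-fold higher (0.162% of 4929 genes, with 0.0609% lower), though at log2 0.89 with grafts taken from 1 eGFP UMI on, and in HH4-HH4 3 hr FOXC2 was (0.726% of 4544, with 0.242% lower). The median log2 ratio of all genes was between -0.07 and -0.01 in these comparisons.

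**Figure D2:**
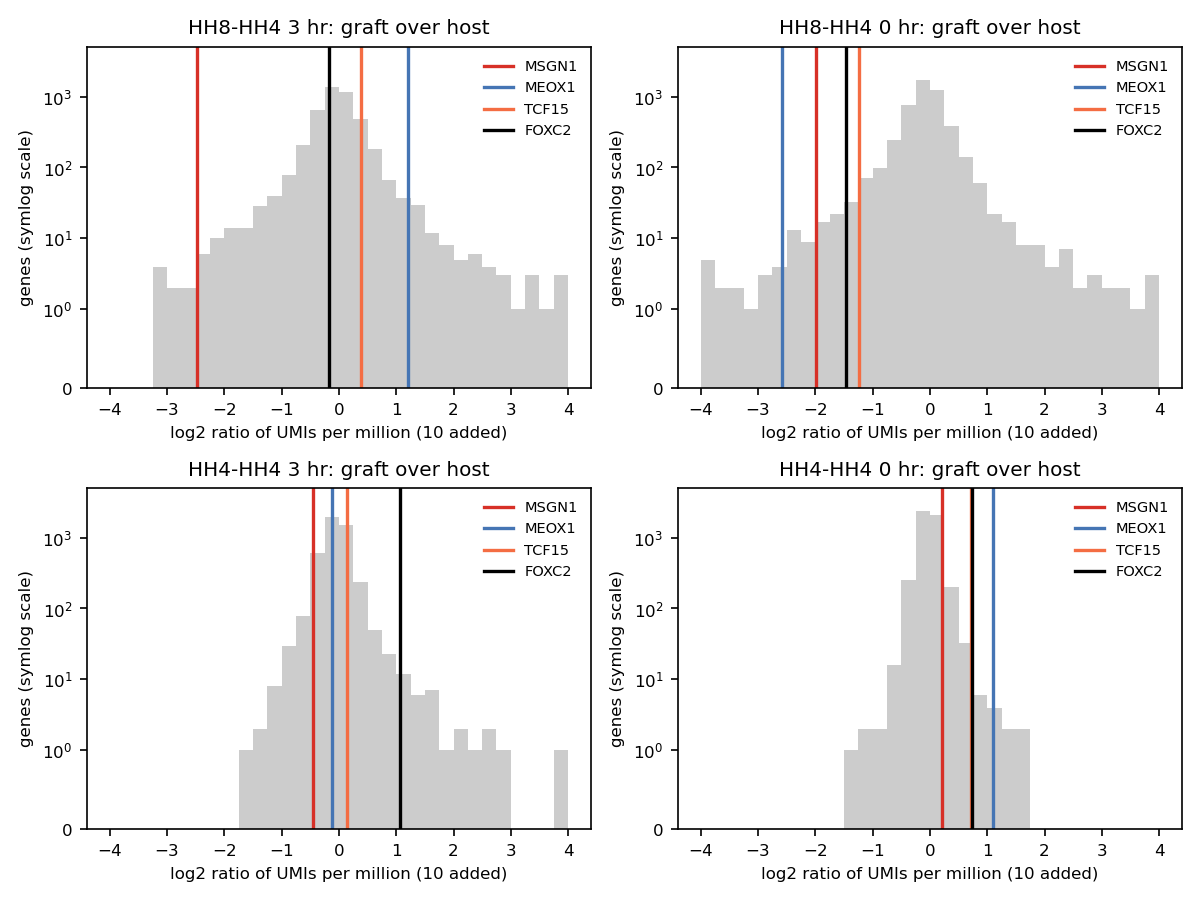
Distribution over genes (grey, number of genes on a symlog scale) of the graft over host log2 ratio in each library, with values beyond 4 put in the end bins and the 4 members as vertical lines. In HH8-HH4 0 hr all 4 lines lie below -1, from MEOX1 at -2.59 to TCF15 at -1.24, and in HH8-HH4 3 hr MSGN1 (-2.48) and MEOX1 (1.20) lie on opposite sides.

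Between libraries, HH8 grafts at 3 hr over 0 hr had MEOX1 12.6-fold (9.84 to 16.2) and FOXC2 8.11-fold (5.60 to 11.7) higher and MSGN1 2.97-fold lower, while TCF15 was 2.38-fold higher, which is log2 0.95 with 10 CPM added. In HH8 grafts, MEOX1 and FOXC2 at 0 hr and MSGN1 and FOXC2 at 3 hr did not exceed the SOX17 barcodes beyond counting error. Sizes of ratios resting on these levels, also for HH8 over HH4 grafts below, are therefore not read as sizes of expression change. Without the 3 barcodes with most MEOX1 in each library, HH8 grafts had 31.1 CPM at 3 hr and 4.94 CPM at 0 hr. Past 2-fold on that scale were 1.19% of 4720 genes higher and 0.763% lower. HH4 grafts at 3 hr over 0 hr had no member past 2-fold (1.14% of 4669 genes higher, 1.48% lower), with log2 ratios from 0.10 for MSGN1 to 0.88 for TCF15. HH8 grafts over HH4 grafts had all 4 members 2-fold lower at 0 hr (3.83% of 4861 genes, with 2.3% higher), where MEOX1 was 15.3-fold and FOXC2 12.8-fold lower. At 3 hr MSGN1 (log2 -3.30), TCF15 (-1.03) and FOXC2 (-1.21) were 2-fold lower (2.02% of 4356 genes, with 2.48% higher), and MEOX1 was 1.63-fold lower.

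Among host cells, all of wild-type HH4 embryos, the 3 hr over 0 hr ratios of MSGN1, MEOX1 and TCF15 had opposite signs in the HH8-HH4 and HH4-HH4 series. In HH8-HH4 hosts at 3 hr over 0 hr MEOX1 was 3.27-fold lower and MSGN1 1.98-fold lower (log2 -0.97, just short of 2-fold on that scale), where 0.545% of 4773 genes were 2-fold lower and 0.189% higher, and in HH4-HH4 hosts MEOX1 was 3.62-fold and TCF15 3.27-fold higher (1.53% of 4905 genes 2-fold higher, 1.63% lower). The hosts of HH4-HH4 3 hr are those that stood apart in MIXL1 and HOXB8. At 0 hr, hosts of HH8 grafts had MEOX1 2.37-fold higher than hosts of HH4 grafts (0.282% of 4971 genes 2-fold higher, 0.0201% lower). At 3 hr they had MSGN1, MEOX1 and TCF15 2-fold lower (1.68% of 4589 genes, with 1.81% higher). HINTW, a gene of the W chromosome, which females carry, stood at 7578 CPM in grafts and 2434 CPM in hosts of HH4-HH4 0 hr, and at 204 CPM in grafts and 5113 CPM in hosts of HH8-HH4 0 hr. At 3 hr its host levels were 2343 CPM in HH8-HH4 and 6311 CPM in HH4-HH4. Its host ratios, between times and between series, thus had the signs of those of MSGN1, MEOX1 and TCF15. The part of embryo sex in the members' ratios was not tested.

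Other genes of the tissue were read from 5 lists. Of 12 presomitic and segmentation genes, 3 were 2-fold lower in grafts than in hosts of HH8-HH4 0 hr and 1 was higher. TBX6, which acts beside MSGN1 in the presomitic mesoderm of mouse, had 71.9 CPM in grafts and 163 CPM in hosts, and EPHA4 had 19.5 and 53.8 CPM. CER1 had 11.9 and 318 CPM, and it is also counted among the node markers below, so its value is not particular to presomitic mesoderm. The higher one, HES5, a Notch target, had 55.8 and 9.74 CPM. Of 11 read in HH8-HH4 3 hr 4 were lower, among them MESP1 at 45.8 CPM in grafts and 223 CPM in hosts, and 2 were higher. DLL1, a Notch ligand of the presomitic mesoderm, did not follow MSGN1 there, with 281 CPM in grafts and 331 CPM in hosts.

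Genes of retinoic acid handling split in HH8-HH4 0 hr. ALDH1A2, the enzyme that makes retinoic acid in somitic mesoderm, had 7.97 CPM in grafts and 177 CPM in hosts, and RDH10, which makes its precursor, had 25.6 and 139 CPM. STRA6, a retinol receptor, had 102 CPM in grafts and 23.2 CPM in hosts, so that 2 of 8 were 2-fold lower and 1 higher, and in HH8-HH4 3 hr 1 of 7 was higher and 0 lower. Somite differentiation genes were 2-fold higher in 2 of 12 in HH8-HH4 0 hr, PAX3 (56.2 and 5.80 CPM) and PAX7 (21.7 and 1.42 CPM), with 0 lower, and in 1 of 8 in HH8-HH4 3 hr. Both PAX genes also serve in neural folds and crest.

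Streak and caudal progenitor genes were higher in 6 of 15 and lower in 3 of 15 in HH8-HH4 0 hr. CDX4, a caudal homeobox gene, had 1103 CPM in grafts and 132 CPM in hosts, and MIXL1 had 56.0 and 1619 CPM. At 3 hr 5 of 14 were higher and 4 lower. Lateral, intermediate and cardiac genes were higher in 5 of 14 and lower in 1 at 0 hr, led by MSX1 at 1811 CPM in grafts and 224 CPM in hosts, and higher in 7 of 13 and lower in 1 at 3 hr. Over the same 5 lists HH4 grafts and hosts differed 2-fold in 4 genes at 3 hr (CER1, TWIST1, MIXL1 and EOMES higher in grafts) and in 2 genes at 0 hr (CDX2 lower at 74.1 and 159 CPM, and MSX1 higher at 252 and 117 CPM).

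Markers of other tissues moved with these ratios. In HH8-HH4 0 hr the 8 node markers summed to 78.7 CPM in grafts and 1348 CPM in hosts (7 of 8 lower), the 6 endoderm markers to 180 and 726 CPM (2 of 5 lower) and the 8 epiblast and early neural markers to 1135 and 2427 CPM (4 of 8 lower), with no defining marker at 0. At 3 hr the HH8-HH4 sums were 334 and 2409 CPM for node, 449 and 468 CPM for endoderm and 1020 and 2259 CPM for epiblast markers. In HH4-HH4 3 hr endoderm markers summed to 544 CPM in grafts and 153 CPM in hosts (5 of 5 higher) beside the higher FOXC2, and epiblast markers to 1064 and 2225 CPM (4 of 8 lower), and in HH4-HH4 0 hr none of these markers was past 2-fold. The part of these tissues in the members' ratios was not tested. Of the 3 HH8 ectoderm markers read, DLX5 and TFAP2A were higher in HH8 grafts at 0 hr (169 and 60.2 CPM, against 11.3 and 4.44 CPM in hosts). EPCAM, an adhesion gene of epithelia, had 532 CPM in grafts and 964 CPM in hosts, so that the list summed to 761 CPM in grafts and 980 CPM in hosts. Blood markers summed to at most 3.46 CPM in any class.

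Within cells, the first question was how MSGN1 stood where MEOX1 and TCF15 were on. Barcodes with at least 5000 UMIs were thinned to that number. Of those with a MEOX1 or TCF15 UMI, an MSGN1 UMI was present in 6 of 26 HH8 graft barcodes (23.1%, exact interval 8.97 to 43.6) and in 30 of 37 host barcodes (81.1%, 64.8 to 92.0) in HH8-HH4 3 hr. In HH8-HH4 0 hr it was present in 139 of 211 graft barcodes (65.9%, 59.1 to 72.2) and 376 of 411 host barcodes (91.5%, 88.4 to 94.0). HH4-HH4 grafts and hosts had 88.6% of 35 and 82.6% of 69 at 3 hr, and 83.8% of 216 and 86.9% of 298 at 0 hr. Thus 7 of the 8 groups had MSGN1 in most barcodes that carried the later genes, and HH8 grafts at 3 hr did not. In that class MSGN1 was rare throughout, with a UMI in 20 of all 110 barcodes. The 6 of 26 therefore show no loss of MSGN1 where the later genes were on. Spearman's rho of MSGN1 over these 110 barcodes was -0.02 with MEOX1 and 0.19 with TCF15.

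**Figure D3:**
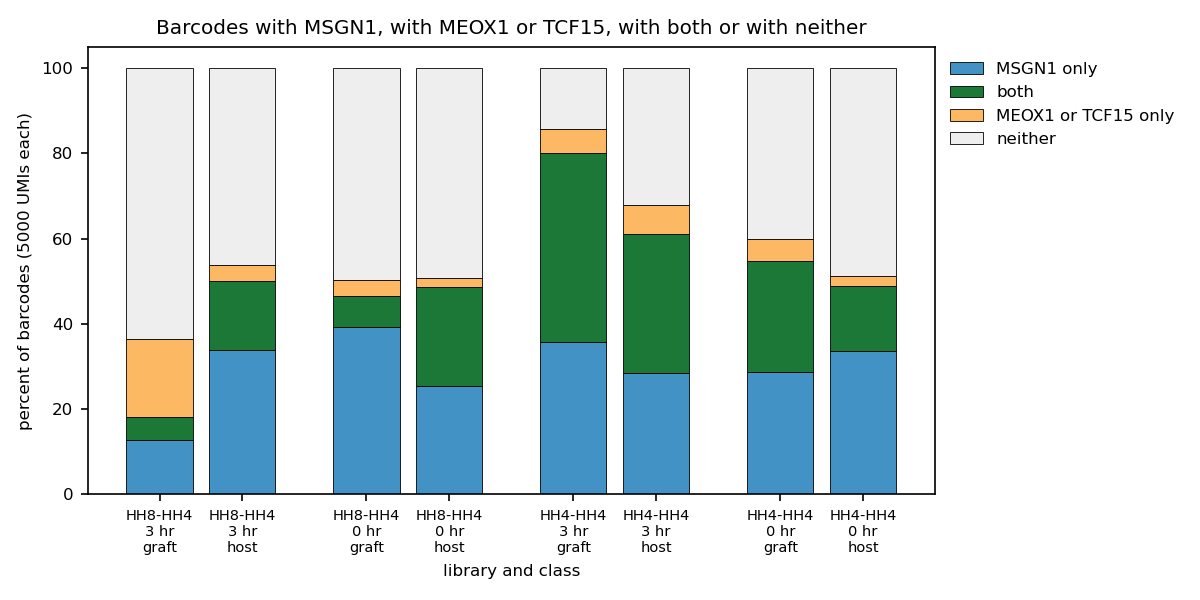
Percent of barcodes (y axis, from 0) of each library and class, thinned to 5000 UMIs, that held MSGN1 only (blue), MSGN1 with MEOX1 or TCF15 (green), MEOX1 or TCF15 only (orange) or neither (grey). HH8 grafts at 3 hr hold the largest orange segment, 18.2% of 110 barcodes, against 2.17% to 6.86% in the other 7 groups.

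All barcodes of a library, also those with 1 or 2 eGFP UMIs, were then sorted by the sum of MEOX1 and TCF15 UMIs. Each bin with the later genes held more MSGN1 than the bin with none. In HH4-HH4 0 hr its level was 485 CPM at 0 UMIs (2040 barcodes), 1536 CPM at 1 (292), 2026 CPM at 2 to 3 (172) and 1829 CPM at 4 or more (82). In HH8-HH4 0 hr, where 110 of the 118 barcodes of the top bin were hosts, it was 335 CPM, 1236 CPM, 2507 CPM and 2719 CPM over 3060, 384, 164 and 118 barcodes. HH4-HH4 3 hr gave 600 CPM, 1714 CPM, 2227 CPM and 1960 CPM over 149, 44, 37 and 35 barcodes, and HH8-HH4 3 hr 199 CPM, 500 CPM, 1905 CPM and 756 CPM over 274, 42, 19 and 9. Taken alone, HH8 grafts at 0 hr had 210 CPM, 383 CPM, 644 CPM and 1333 CPM of MSGN1 over 1725, 181, 27 and 3 barcodes, and HH8 grafts at 3 hr held 21, 3, 7 and 5 MSGN1 UMIs over 84, 15, 6 and 5 barcodes.

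Whether MSGN1 was lower at 4 or more UMIs than at 1 depended on how the bins were made and, in the 3 hr libraries, on the random draw of thinning. With the sum at 5000 UMIs and the main seed it was not, in any library. At least 1 other seed gave a negative log2 ratio in HH8-HH4 3 hr, and so in HH4-HH4 3 hr, as listed in the last section. The log2 ratio of the bin of 4 or more over the bin of 1 was 0.25 in HH4-HH4 0 hr (1.19-fold, 1.09 to 1.29), 1.13 in HH8-HH4 0 hr (2.20-fold, 2.06 to 2.34), 0.19 in HH4-HH4 3 hr (1.14-fold, 0.985 to 1.33) and 0.59 in HH8-HH4 3 hr (1.51-fold, 0.995 to 2.24), the last pair within counting error of none. Thinned to 2000 UMIs, where 4 UMIs stand for a higher level, the ratio turned to -0.89 in HH4-HH4 0 hr and -0.45 in HH4-HH4 3 hr, and with bins by MEOX1 alone to -0.26 and -0.69. At 5000 UMIs HH4 graft barcodes at 0 hr were the exception, with 1071 CPM at 4 or more (42 barcodes) and 1528 CPM at 1 (105), a log2 ratio of -0.51, where their hosts had 2578 CPM (36) and 1564 CPM (167), 0.72.

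At the top of the range MSGN1 was lower with thinning to 5000 UMIs, and this too depended on the thinning. With the upper bin divided at 8, a limit chosen after the values had been seen, MSGN1 in barcodes with 8 or more over 4 to 7 UMIs was 917 CPM (691 to 1193, 12 barcodes) over 1986 CPM (1841 to 2139, 70) in HH4-HH4 0 hr, log2 -1.11. It was 2026 CPM (1829 to 2239, 38 barcodes) over 3048 CPM (2879 to 3224, 80) in HH8-HH4 0 hr, log2 -0.59, and 1200 CPM (939 to 1511, 12 barcodes) over 2357 CPM (2084 to 2654, 23) in HH4-HH4 3 hr, log2 -0.97. In HH8-HH4 3 hr the 2 barcodes with 8 or more held 0 MSGN1 UMIs, which allows up to 3 counts, and the 7 with 4 to 7 held 971 CPM. Split by class, MSGN1 in HH4-HH4 0 hr was 575 over 1188 CPM in grafts (8 and 34 barcodes) and 1600 over 2700 CPM in hosts (4 and 32). In HH4-HH4 3 hr it was 800 over 1700 CPM in grafts (2 and 8 barcodes) and 1575 over 2709 CPM in hosts (8 and 11). So few barcodes, at a limit chosen after the values, cannot show that the classes behave alike. Thinned to 10000 UMIs, where 8 UMIs stand for a lower level, the log2 ratios were nearer to 0: -0.37 for HH4-HH4 0 hr, -0.27 for HH8-HH4 0 hr and -0.08 for HH4-HH4 3 hr. Without thinning, where the count also follows depth, the ratio changed direction in both 3 hr libraries, to 0.70 (HH4-HH4) and 0.36 (HH8-HH4), and at 0 hr it was -0.07 (HH4-HH4) and -0.20 (HH8-HH4).

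Coefficients over barcodes, which share a library and, after thinning, a depth, changed sign in the 0 hr libraries. Spearman's rho of MSGN1 with the sum of MEOX1 and TCF15 was 0.42 over the 666 barcodes of HH8-HH4 0 hr with at least 1 such UMI, and -0.35 over the 118 with 4 or more. It was 0.14 over 546 and -0.16 over 82 barcodes in HH4-HH4 0 hr, and in HH4-HH4 3 hr it was near 0 over 116 barcodes (0.02, with Pearson's r at -0.03) and -0.42 over 35. In HH8-HH4 3 hr it was 0.28 over 70 barcodes, and none was computed over the 9 with 4 or more. Grouped instead by MEOX1 plus TCF15 CPM without thinning, also chosen after the values had been seen, MSGN1 was 453 CPM at 1600 CPM or more (6 barcodes) and 1645 CPM at 800 to 1600 CPM (60) in HH4-HH4 0 hr, and 1709 CPM (28) and 2871 CPM (70) in HH8-HH4 0 hr. None of those 28 barcodes lacked MSGN1, so the level was lower there but not lost. In HH8-HH4 3 hr the 5 barcodes at 800 CPM or more held 0 MSGN1 UMIs.

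FOXC2 was not lower at the top in the 3 libraries with more than 2 barcodes in the top bin. Across the bins of 0, 1, 2 to 3, 4 to 7 and 8 or more UMIs of MEOX1 plus TCF15 its level was 10.9, 65.8, 137, 149 and 183 CPM in HH4-HH4 0 hr, and 5.49, 24.5, 57.3, 123 and 205 CPM in HH8-HH4 0 hr. In HH4-HH4 3 hr it was 17.4, 36.4, 37.8, 130 and 200 CPM. At 8 or more over 4 to 7 the FOXC2 ratio was 1.68-fold (1.07 to 2.60) in HH8-HH4 0 hr, and in HH4-HH4 0 hr it was 1.23-fold (0.581 to 2.39), within counting error of none. Grafts alone of HH4-HH4 0 hr had 100 over 182 CPM (8 and 34 barcodes), also within counting error.

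**Figure D4:**
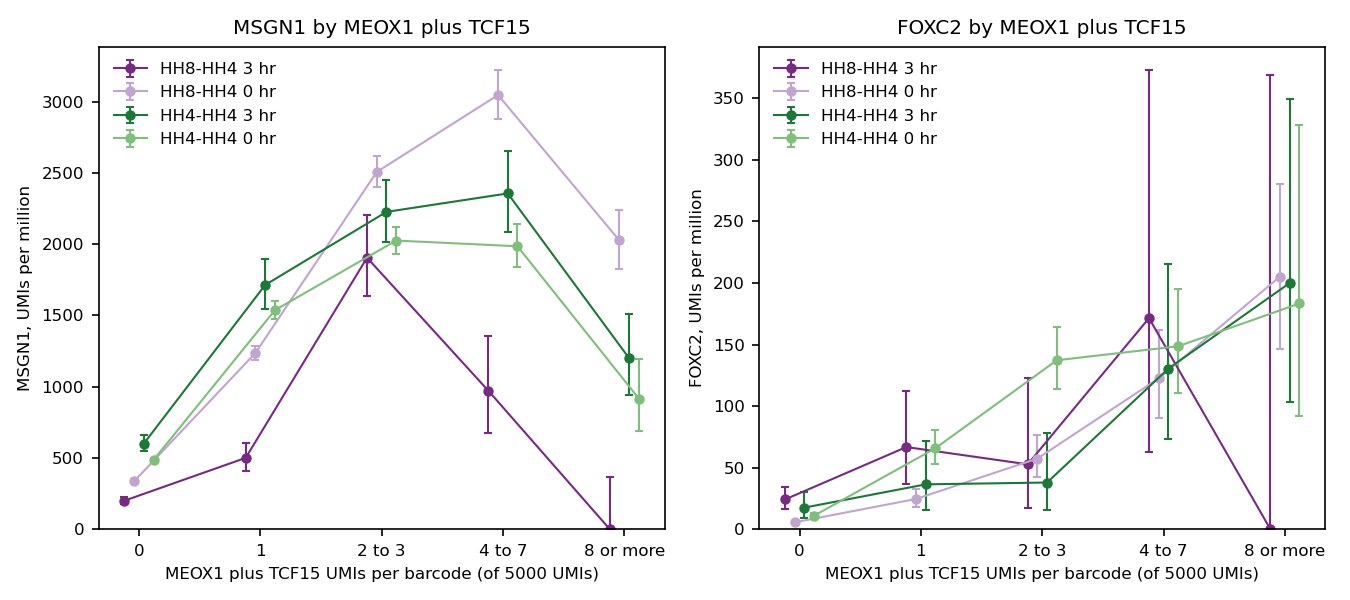
MSGN1 (left) and FOXC2 (right), in CPM with 95% Poisson intervals, by the number of MEOX1 plus TCF15 UMIs in a barcode thinned to 5000 UMIs, with 1 line per library. MSGN1 peaks at 2 to 3 or 4 to 7 UMIs and is lower at 8 or more in all 4 libraries (917 CPM in HH4-HH4 0 hr and 2026 CPM in HH8-HH4 0 hr), and FOXC2 reaches 183 to 205 CPM at 8 or more in 3 libraries and 0 in the 2 barcodes of HH8-HH4 3 hr.

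Other genes marked off the barcodes with 4 or more UMIs of MEOX1 plus TCF15 from those with 1. RDH10 was 2-fold higher in 3 libraries, with 554 over 116 CPM in HH8-HH4 0 hr, 606 over 264 CPM in HH4-HH4 3 hr and 259 CPM in HH4-HH4 0 hr (log2 1.29). ALDH1A2 did likewise, with 868 over 173 CPM, 1023 over 405 CPM and 251 over 112 CPM. Such calls were made for 1.2% of 3903, 1.83% of 2297 and 0.513% of 3706 genes in those libraries, and for 2.35% of 1827 in HH8-HH4 3 hr, where neither gene reached the minimum of 20 UMIs. FOXC1, a gene of early somites, was 2-fold higher in HH4-HH4 0 hr (51.2 over 17.8 CPM). There 2 of 7 somite differentiation genes were higher and 0 lower. In HH8-HH4 0 hr 0 of 3 were higher and PAX3 was lower (1.69 over 26.6 CPM), and at 3 hr none reached 20 UMIs. Of presomitic and segmentation genes 0 were higher in any library. Lower were 3 of 11 in HH8-HH4 0 hr (CER1, HES5 and HES4), 2 of 10 in HH4-HH4 0 hr, 2 of 7 in HH8-HH4 3 hr and 0 of 6 in HH4-HH4 3 hr. These counts are no general fall of the list. Its median log2 ratio was 0.59 in HH8-HH4 0 hr, 0.02 in HH4-HH4 0 hr and 0.20 in HH4-HH4 3 hr. In HH8-HH4 3 hr it was -0.49, and over all genes the medians lay between -0.03 and 0.01.

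Streak genes went the other way from RDH10 and ALDH1A2. MIXL1 was 2-fold lower in all 4 libraries, with 46.3 over 834 CPM in HH4-HH4 0 hr and 30.5 over 474 CPM in HH8-HH4 0 hr, and so was CDX2, with 21.9 over 67.8 CPM and 89.8 over 412 CPM. Of the list of streak and caudal genes 3 of 13 were lower in HH4-HH4 0 hr, 7 of 11 in HH4-HH4 3 hr, 8 of 14 in HH8-HH4 0 hr and 6 of 10 in HH8-HH4 3 hr, and 0 were higher (over all genes 1.83%, 2.57%, 2.28% and 8.21% were lower). Node markers fell in sum to 263 CPM at 4 or more, against 1091 CPM at 1, in HH4-HH4 0 hr, and to 83.1 CPM, against 527 CPM, in HH8-HH4 0 hr. Epiblast markers summed to 717 CPM, against 1423 CPM, and 934 CPM, against 1317 CPM. Their part in the MSGN1 values was not tested.

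The genes most like each member were ranked by Pearson's r over the 2698 barcodes of HH4-HH4 0 hr, which share 1 library and differ in depth. For MEOX1 they were TCF15 (0.58), FOXC2 (0.54), AGRP, TSPAN18 and POMC, and for FOXC2 MEOX1 (0.54) and TCF15 (0.50) led. TCF15 stood nearest to MEOX1, AGRP, FOXC2, MSGN1 (0.48) and TSPAN18. MSGN1 had AGRP (0.71), CXCL14 (0.63), DLL1 (0.61), ALDH1A2 (0.59) and ZEB2 (0.57) before any other member. In the 1726 hosts of HH8-HH4 0 hr TCF15 was again first for MEOX1 (0.59), and ALDH1A2 was first for MSGN1 (0.73). Over the 2029 HH8 grafts of that library the pair MEOX1 and TCF15 had r = 0.09 at the low levels given above.

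The HH8 graft barcodes with MEOX1 at 3 hr were looked at one by one. The top 6 held 43, 41, 15, 15, 11 and 8 MEOX1 UMIs, and 0, 0, 12, 0, 1 and 0 MSGN1 UMIs. Their HOXB8 counts were 1, 0, 20, 0, 0 and 0, although 90.5% of these graft barcodes held HOXB8, and their eGFP counts were 29, 50, 21, 23, 29 and 35. Apart from the third, whose total of 50427 UMIs was the highest of the 6, these barcodes held at most 1 UMI of MSGN1 and of HOXB8. In HH8 grafts at 0 hr the top 6 held 4 to 6 MEOX1 UMIs beside 10 to 34 of MSGN1 and 2 to 13 of HOXB8.

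Grafts were therefore divided at 500 CPM of HOXA7 plus HOXB8, a limit set after these counts had been seen. At 3 hr 22 barcodes lay below it (median 18286.5 UMIs) and 94 above (median 19722 UMIs). The 22 held 135 of the 168 MEOX1 UMIs (80.4%) and 7 of the 178 MSGN1 UMIs (3.93%). The 5 barcodes whose counts led to the limit are among the 22 and hold most of the 135, so these values describe the split and support nothing. Their MEOX1 level was 325 CPM (272 to 384), against 17.4 CPM (12.0 to 24.4) in the others, TCF15 was 108 CPM against 37.4 CPM, FOXC2 91.4 CPM against 12.1 CPM and ALDH1A2 111 CPM against 2.64 CPM. MSGN1 was 16.8 CPM (6.77 to 34.7) against 90.2 CPM (77.2 to 105), neither above the 102 CPM of the SOX17 barcodes, and CDX4 214 CPM against 631 CPM.

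The 22 differed in other genes too. Their eGFP level was 1674 CPM, against 1125 CPM in the 94, and their HINTW level was 28.9 CPM, against 311 CPM in the 94 and 2343 CPM in hosts. SOX17 stood at 108 CPM against 12.1 CPM and CHRD, a node gene, at 486 CPM against 120 CPM, and the part of other cell types in the MEOX1 value was not tested. With a limit of 250 CPM the MEOX1 levels were 361 CPM in 19 barcodes against 20.4 CPM in 97, and with 1000 CPM 249 CPM in 30 against 9.40 CPM in 86. TCF15 was 62.1 CPM (38.9 to 94.0) against 48.0 CPM (38.8 to 58.8) with 250 CPM, which overlap, and 111 CPM against 28.2 CPM with 1000 CPM. The MSGN1 difference turned with the limit, at 14.1 CPM against 88.4 CPM with 250 CPM and 108 CPM against 65.8 CPM with 1000 CPM.

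**Figure D5:**
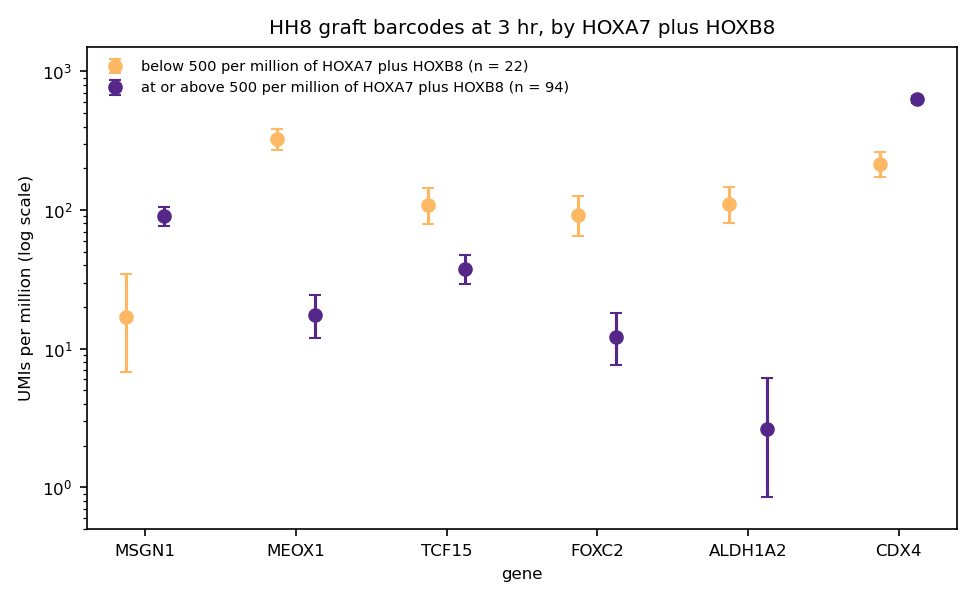
Levels (y axis, CPM, log scale) of the members, ALDH1A2 and CDX4 in HH8 graft barcodes at 3 hr below (orange) and at or above (purple) 500 CPM of HOXA7 plus HOXB8, with 95% Poisson intervals. MEOX1 is 325 CPM in the 22 low barcodes and 17.4 CPM in the 94 others, and MSGN1 is 16.8 CPM and 90.2 CPM.

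At 0 hr the same limit left 16 of 2029 HH8 grafts, and they held 0 of the 110 MEOX1 UMIs, which allows up to 3 counts, and MSGN1 at 794 CPM against 224 CPM in the other 2013. With 1000 CPM the low side held 85 barcodes and 21 of the 110 MEOX1 UMIs. That was 27.1 CPM (16.8 to 41.4), against 4.87 CPM (3.91 to 5.99) in the other 1944, and MSGN1 was 721 CPM against 208 CPM. The limits were set after the 3 hr counts had been seen, and MEOX1 on the low side at 0 hr depended on the limit. The 0 hr values therefore lend the 3 hr split no support. No replicate of either library was at hand to set beside these values.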

How the data were processed

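Per the deposited files, the authors counted UMIs per gene and barcode with Cell Ranger (6.1.1 in the file header, with galGal6 named in the submitters' processing notes), and these counts are not normalised. Replicates 1 and 2 of HH4-HH4 0 hr shared 2755 barcodes (r = 0.984 of log2 UMIs) and counted as 1 library. Replicate 1 lists genes without symbols and held 0 GFP UMIs, so replicate 2 was used. Other pairs of libraries shared 0 to 2 barcodes. Barcodes with 1 or 2 eGFP UMIs were in neither class. They were kept where barcodes were not split by class: SOX17 barcodes, pooled bins, CPM groups, their coefficients, and similar genes in HH4-HH4 0 hr. Doublets were not called and were kept.

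Levels have exact Poisson and shares Clopper-Pearson intervals at 95%. Log2 ratios, and calls at 2-fold or more made on them, added 10 CPM to both levels. Printed folds and their intervals added nothing, so a fold can pass 2 where no call was made. Shares of genes called cover those with at least 20 UMIs in both groups together. Thinning drew UMIs without replacement, with a fixed seed. Named genes were the members, the 5 most correlated genes with each (present in at least 5% of barcodes), list genes past 2-fold, HINTW and HOXB8, while T, HOXA7 and the genes of the HOX split were named after their values were seen. Alternatives changed the eGFP and UMI minimums, thinning, bins, seeds and deepest barcodes. Members and lists were chosen with earlier results of these data known. The ratio code was tested on simulated data. Computations ran in pandas 2.3.3 with scipy 1.17.1, on numpy 2.4.6, under Python 3.11.15.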

Additional observations from a re-analysis of the deposited data

Results flagged for a closer look

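Graft over host ratios of opposite sign in different libraries, each beyond counting error, are listed here. These differences were not tested, since each library is 1 sample. MEOX1 had log2 ratios of 1.20 in HH8-HH4 3 hr and -2.59 in HH8-HH4 0 hr, and TCF15 had 0.38 and -1.24. HH8-HH4 0 hr and HH4-HH4 0 hr had opposite signs for all 4 members, with -1.99 and 0.21 for MSGN1, -2.59 and 1.10 for MEOX1, -1.24 and 0.71 for TCF15, and -1.46 and 0.74 for FOXC2. MSGN1 had -0.45 in HH4-HH4 3 hr and 0.21 in HH4-HH4 0 hr.

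Barcodes with fewer than 2000 UMIs also held the members. They were left out of every comparison except the alternative setting without a UMI minimum. Their UMIs summed to 515 CPM (186 UMIs in 534 barcodes) in HH8-HH4 3 hr, 589 CPM (50 UMIs in 73 barcodes) in HH8-HH4 0 hr, 1910 CPM (52 UMIs in 28 barcodes) in HH4-HH4 3 hr and 488 CPM (31 UMIs in 59 barcodes) in HH4-HH4 0 hr. MSGN1 made up most of each sum, with 137 of the 186 UMIs in HH8-HH4 3 hr.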

How the results depend on the processing

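Of 160 graft over host ratios of single members under other settings 141 stayed within the counting error of the reported value, and 0 beyond counting error changed sign. The levels themselves were less stable: 175 stayed within the Poisson interval of the reported level and 113 did not. The count of members 2-fold lower in grafts was not called moved under any setting run, by a rule that lets a small change of a count pass. The count 2-fold higher in HH8-HH4 3 hr was 0 in place of 1 with grafts at 1 or more eGFP UMI, without the 5% deepest barcodes and without the 3 top barcodes (added after seeing the data). In HH4-HH4 0 hr it was 0 in place of 1 with 1 or more eGFP UMI, and 2 with barcodes thinned to 2000 UMIs. The causes were not tested.

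The MSGN1 ratio of 4 or more over 1 UMI of MEOX1 plus TCF15 depended on the depth at which bins were made, since the same count marks a higher level at lower depth. Under other settings 10 values stayed within the counting error of the reported ratio and 24 did not. A further 2 turned the sign of a reported ratio that lay beyond counting error. For 8 or more over 4 to 7 UMIs these counts were 18, 13 and 2. Thinned to 2000 UMIs, the log2 ratio was -6.35 in HH8-HH4 3 hr (2 barcodes with 0 MSGN1 UMIs), 0.45 in HH8-HH4 0 hr, -0.45 in HH4-HH4 3 hr and -0.89 in HH4-HH4 0 hr. The sign turned in all of these but HH8-HH4 0 hr. Among those that turned, only HH4-HH4 0 hr had a reported ratio (0.25) beyond counting error. Thinned to 10000 UMIs it was 1.53 in HH8-HH4 0 hr, 0.82 in HH4-HH4 3 hr and 0.78 in HH4-HH4 0 hr. Without thinning it was 2.09 in HH8-HH4 3 hr, 1.71 in HH8-HH4 0 hr, 2.15 in HH4-HH4 3 hr and 1.20 in HH4-HH4 0 hr, and the ratio of 8 or more over 4 to 7 turned to 0.36 in HH8-HH4 3 hr and 0.70 in HH4-HH4 3 hr. Binned by MEOX1 alone it was 0.0897 in HH8-HH4 0 hr and, with the sign turned in both, -0.69 in HH4-HH4 3 hr and -0.26 in HH4-HH4 0 hr. By TCF15 alone it was -6.37 in HH8-HH4 3 hr (2 barcodes), 0.62 in HH8-HH4 0 hr, -0.25 in HH4-HH4 3 hr and 0.60 in HH4-HH4 0 hr. Barcodes with 3 or more UMIs of 6 mesoderm markers (TBX6, DLL1, ALDH1A2, RDH10, AGRP and CXCL14) gave 0.87 in HH8-HH4 0 hr and 0.085 in HH4-HH4 0 hr. AGRP, CXCL14, DLL1 and ALDH1A2 are also the genes most like MSGN1 in these data, so this choice of barcodes is not independent of MSGN1. Without the 5% deepest barcodes it was -0.10 in HH8-HH4 3 hr and 0.47 in HH4-HH4 0 hr. Other seeds gave 1.26 and -0.37 in HH8-HH4 3 hr, 1.03 in HH8-HH4 0 hr and -0.13 in HH4-HH4 3 hr.

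No paired analysis was possible because each condition is 1 library, and for the same reason no replicate could be left out. HH4-HH4 0 hr from replicate 1 was not run, since its genes have no symbols. At a depth of 5000 UMIs per barcode, the bins of 8 or more UMIs rest on 2 to 38 barcodes.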
